A study of Mus musculus with 3 samples.

Results

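The 10 genes described here were 6 glycolytic enzymes (Gapdh, Aldoa, Pgk1, Eno1, Pkm and Ldha) and 4 genes known as targets of the hypoxia response (Slc2a1, Bnip3, Ndrg1 and Ddit4). They were taken by exact gene symbol from the 32286 genes measured, and each symbol matched 1 gene. Messenger RNA was counted in single cells from mouse bronchoalveolar lavage, sorted as CD11b+ or CD11c+, which takes in macrophages, neutrophils and dendritic cells. All mice had received bleomycin through the airway, a standard way to injure the lung and start fibrosis, and were lavaged on day 14. The 3 groups were wild-type mice given GW5074 (WT GW5074), Clec7a knockout mice given DMSO (KO DMSO) and wild-type mice given DMSO (WT DMSO). GW5074 is a small-molecule inhibitor of the kinase Raf-1, Clec7a encodes the beta-glucan receptor Dectin-1, and DMSO is the solvent used as vehicle. The labels give no strain, sex, age, dose, dosing times or number of mice. The lavage of each group was pooled before sorting and gave 1 library, so differences between mice were not measured. Every comparison between groups is therefore between 2 libraries and carries no p-value.

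Glycolysis turns glucose into pyruvate in the cytosol and yields ATP without oxygen, and lactate dehydrogenase then regenerates the cofactor that keeps it running. When oxygen is short, or when innate immune receptors are engaged, the transcription factor HIF-1 binds DNA with its partner ARNT and raises most of the enzymes of this pathway, the glucose transporter and a set of stress genes. Macrophages, neutrophils and dendritic cells are known to lean on glycolysis when activated. Ndrg1 and Ddit4 belong to the stress genes but also answer to other signals: Ddit4, which encodes the mTORC1 inhibitor REDD1, is induced by glucocorticoids, energy stress and DNA damage, and Ndrg1 by iron shortage and cell differentiation.

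All 10 genes are protein coding. On mm10 the annotation placed Ndrg1 on the minus strand at chr15:66929318-66969640 and Ddit4 on the minus strand at chr10:59949669-59951834. Promoter sequences from RefSeq (GRCm38.p6, 250 bases before to 50 after a start site) were found for 9 of the 10 genes, Ndrg1 being the one without an entry. HIF-1 binds a core that reads ACGTG or GCGTG, and both were searched for on both strands. The promoters of Ddit4 and Gapdh are shown because these genes carried differences between libraries, as did Aldoa and Eno1, whose promoters are not printed. Those of Slc2a1 and Bnip3 are shown because both are textbook HIF-1 targets. Neither of these had a called difference, and most of their levels were too low for a call. Capitals mark the core on either strand.
Ddit4, chr10:59951721-59952020, minus strand: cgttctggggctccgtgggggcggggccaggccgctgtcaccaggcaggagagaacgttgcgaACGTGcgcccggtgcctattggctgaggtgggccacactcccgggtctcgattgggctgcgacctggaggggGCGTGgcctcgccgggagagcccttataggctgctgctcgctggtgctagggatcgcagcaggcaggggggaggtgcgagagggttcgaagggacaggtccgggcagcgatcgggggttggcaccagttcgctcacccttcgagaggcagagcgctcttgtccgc
Gapdh, chr6:125165724-125166023, minus strand: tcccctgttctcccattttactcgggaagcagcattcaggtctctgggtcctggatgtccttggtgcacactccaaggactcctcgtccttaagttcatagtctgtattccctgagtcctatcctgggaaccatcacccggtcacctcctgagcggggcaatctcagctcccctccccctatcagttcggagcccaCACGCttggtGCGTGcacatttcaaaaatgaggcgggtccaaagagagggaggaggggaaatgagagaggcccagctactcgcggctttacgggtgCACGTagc
Slc2a1, chr4:119108495-119108794, plus strand: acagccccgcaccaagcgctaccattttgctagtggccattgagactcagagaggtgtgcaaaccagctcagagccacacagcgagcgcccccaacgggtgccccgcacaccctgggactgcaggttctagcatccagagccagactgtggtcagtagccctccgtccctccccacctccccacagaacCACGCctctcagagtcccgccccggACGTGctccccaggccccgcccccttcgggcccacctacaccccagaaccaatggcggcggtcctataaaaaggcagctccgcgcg
Bnip3, chr7:138909457-138909756, minus strand: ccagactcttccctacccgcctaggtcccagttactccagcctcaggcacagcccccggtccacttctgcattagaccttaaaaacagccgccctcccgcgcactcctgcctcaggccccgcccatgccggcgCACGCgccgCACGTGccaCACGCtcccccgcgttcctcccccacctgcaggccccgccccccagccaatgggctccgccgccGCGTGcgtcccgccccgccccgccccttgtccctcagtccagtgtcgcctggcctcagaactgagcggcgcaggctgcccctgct
Ddit4 had 2 cores in this window, starting 187 and 115 bases before the start site, and Slc2a1 had 2. Gapdh had 3, of which 1 lay after the start site. Bnip3 had 5, including the palindrome CACGTG, which counts on both strands and overlaps the core. Of the promoters not printed, Aldoa had windows with 0, 1 and 1 cores and Pkm with 0 and 2. Eno1 had 2 in each window, Pgk1 had 2, and Ldha had windows with 7 and 2. Of 32851 mouse promoters of this length, 43.8% held at least 1 core (ACGTG in 19.6%, GCGTG in 32.4%) and 7.15% held CACGTG. The full consensus palindrome of the glucocorticoid receptor, searched for exactly, was in none of the members' promoters and in 3 of all promoters. These matches describe the windows and say nothing of whether a factor binds there.

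The deposited matrices held 17809 barcodes in the WT GW5074 library, 11678 in KO DMSO and 13504 in WT DMSO, with 45462817, 34859676 and 39180331 UMIs (unique molecular identifiers, each standing for 1 captured transcript). After removing barcodes with fewer than 200 genes or more than 20% mitochondrial UMIs, 17792, 11642 and 13454 cells were kept, with median depths of 2276, 2937 and 2438.5 UMIs. WT GW5074 shared 154 barcodes with WT DMSO and 119 with KO DMSO, and KO DMSO shared 80 with WT DMSO. A cell was given a class when it showed at least 3 of that class's marker genes and at least 2 more than of any other. This placed 69.0% of WT GW5074 cells, 71.4% of KO DMSO cells and 72.6% of WT DMSO cells. The 6 classes with at least 100 cells in every library were compared. Class names below mean cells gated on such markers, and T cells, which lie outside the intended sort, were kept as a class for comparison. Clec7a stood at 895 CPM (UMIs of the gene per 1000000 UMIs of the class) in WT GW5074, 13.9 in KO DMSO and 842 in WT DMSO resident alveolar macrophages, which put the library labelled KO far below the others.

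Neutrophils differed most in number, with 104 cells in WT GW5074 and 177 in KO DMSO against 2412 in WT DMSO, so their values are the least precise. Migratory dendritic cells, the CCR7+ dendritic cells that carry antigen to lymph nodes, numbered 3001 in WT GW5074, 1897 in KO DMSO and 3375 in WT DMSO. Their depth differed as well, with medians of 1687, 2501 and 2868 UMIs. All 12 of their markers were detected in each library, and the markers summed to 10541.5, 10072.5 and 10442.4 CPM.

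Summed over the 6 enzymes, levels were highest in macrophages and lowest in migratory dendritic cells. In that sum migratory dendritic cells had 788 CPM in WT GW5074, 954 in KO DMSO and 677 in WT DMSO. Resident alveolar macrophages, the self-renewing phagocytes of the airspace, had 1950, 2119 and 1781 CPM in the same libraries. Monocyte-derived macrophages, which enter the lung after injury, stood just below them at 1736, 1933 and 1674 CPM. Neutrophils, conventional dendritic cells 1 (cDC1, which cross-present antigen) and T cells lay between, from 982 to 1390 CPM. Single enzymes departed from this order: Ldha was highest in cDC1 and Pkm in neutrophils of each library, Pgk1 was lowest in neutrophils, and Gapdh was lowest in cDC1 or T cells.

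**Figure D1:**
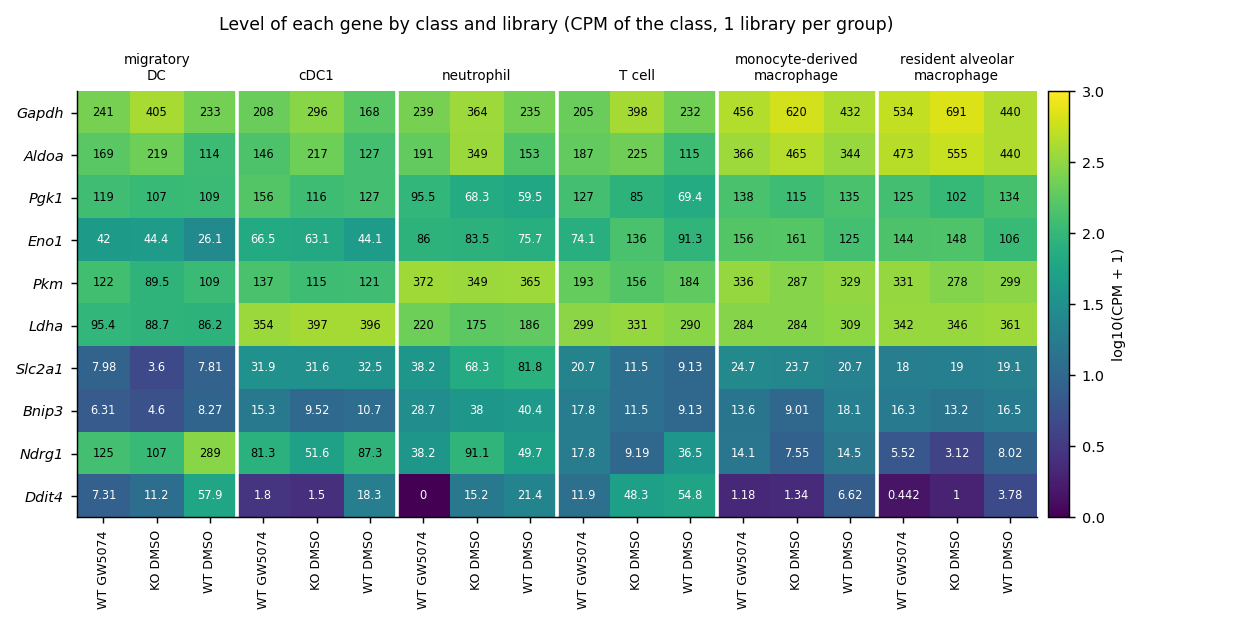
Level of each of the 10 genes (rows) in the 6 classes, each with its 3 libraries (columns), as CPM of the class; numbers are CPM and colour is log10(CPM + 1). Gapdh and Aldoa are brightest in the macrophage classes on the right, Ldha has its lowest levels in migratory dendritic cells (86.2 to 95.4 CPM), and Ndrg1 is highest there, up to 289 CPM in WT DMSO.

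A gene was called higher or lower when its CPM differed by at least 1.5-fold, the exact 95% interval of the ratio excluded 1, and it reached 50 CPM in 1 of the 2 and 100 UMIs over both. These intervals, and all intervals below, cover counting error only. By this rule 5 enzymes were lower in migratory dendritic cells than in resident alveolar macrophages in 3 of 3 libraries. They were Gapdh, Aldoa, Eno1, Pkm and Ldha, of 7 members that passed the filter on low values in every library. Of all genes tested in that contrast, 35.4% were lower and 22.5% higher in every library, so such calls between these classes were common. Ldha, which converts pyruvate to lactate, differed most among the enzymes in each library. It stood at 95.4 CPM in migratory dendritic cells against 342 in resident alveolar macrophages of WT GW5074, 3.59-fold lower (3.28 to 3.93). In KO DMSO it was 88.7 against 346 CPM, 3.90-fold lower (3.53 to 4.31). In WT DMSO it was 86.2 against 361 CPM, 4.19-fold lower (3.86 to 4.55). Pgk1, which makes ATP in the payoff phase, kept within 1.5-fold between these classes in 3 of 3 libraries, at 119, 107 and 109 CPM in migratory dendritic cells against 125, 102 and 134 CPM.

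The median of all genes in this contrast was not at 0 but at a log2 ratio of -0.24 in WT GW5074, -0.30 in KO DMSO and -0.22 in WT DMSO. Relative to that median, Aldoa, Eno1, Pkm and Ldha remained past the rule in 3 of 3 libraries and Gapdh did not in KO DMSO. cDC1 shared low Gapdh, Aldoa, Eno1 and Pkm with migratory dendritic cells, 4 members of 7 tested lower than in resident alveolar macrophages in every library, where 28.6% of all genes were. They did not share low Ldha, which stood at 354, 397 and 396 CPM in cDC1 and was within 1.5-fold of resident alveolar macrophages throughout. Neutrophils had lower Gapdh, Aldoa and Ldha (3 of 6 members tested, 8.2% of all genes), and T cells lower Gapdh, Aldoa and Pkm (3 of 6, 23.7% of all genes). None of 6 members tested was past the rule between monocyte-derived and resident macrophages, where 9.29% of genes were lower and 5.17% higher in every library. The medians of all genes in these 4 contrasts lay between -0.25 and 0.20, and taking them off changed none of these calls made in every library.

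Pkm, the last enzyme of the pathway, was highest in neutrophils at 372, 349 and 365 CPM, with an interval that overlapped that of monocyte-derived macrophages in each library. Eno1, enolase, had its highest level in monocyte-derived macrophages of each library (156, 161 and 125 CPM) and its lowest in migratory dendritic cells (42.0, 44.4 and 26.1 CPM). The near-identical copy Eno1b had 0 UMIs over all kept cells, and reads shared between such near-identical copies cannot be told apart, so Eno1 levels are uncertain to that extent. The testis paralogs Aldoart1, Gapdhs and Ldhc had 3, 6 and 3 UMIs, and Pgk2 had 0.

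Slc2a1, the basal glucose transporter GLUT1, was low in every class compared and highest in neutrophils. It reached 38.2 CPM (4 UMIs) in WT GW5074, 68.3 CPM (9 UMIs) in KO DMSO and 81.8 CPM (176 UMIs) in WT DMSO neutrophils. Migratory dendritic cells had 7.98, 3.60 and 7.81 CPM, the lowest of the 6 classes in each library. Bnip3, a receptor that marks mitochondria for removal, followed the same order at its ends, with 28.7, 38.0 and 40.4 CPM in neutrophils and 6.31, 4.60 and 8.27 CPM in migratory dendritic cells. In WT GW5074 and KO DMSO the neutrophil intervals of both genes overlapped those of the next class, with Bnip3 resting on 3 and 5 UMIs. Bnip3 was below the filter on low values in all 6 classes and Slc2a1 in all but neutrophils, where it was within the rule in both comparisons with WT DMSO. Below the filter, both were lower in KO DMSO than in WT DMSO migratory dendritic cells, with log2 ratios of -1.12 for Slc2a1 and -0.85 for Bnip3. Bnip3 was also lower in monocyte-derived macrophages, at -1.01. The intervals of these ratios excluded 1. WT GW5074 gave no such call in these classes without the filter.

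Ndrg1 and Ddit4 showed a different distribution. Ndrg1 was highest in migratory dendritic cells in each library, cDC1 or neutrophils came next, and macrophages were lowest. In migratory dendritic cells it stood at 125 CPM in WT GW5074 (interval 117 to 135), 107 CPM in KO DMSO (97.8 to 116) and 289 CPM in WT DMSO (279 to 299). In KO DMSO alone this interval overlapped that of the next class, neutrophils, at 91.1 CPM from 12 UMIs. Over resident alveolar macrophages Ndrg1 was 22.7-fold higher in WT GW5074, 34.2-fold higher in KO DMSO and 36.0-fold higher in WT DMSO migratory dendritic cells. It was also 14.7-, 16.5- and 10.9-fold higher in cDC1 than in resident alveolar macrophages, and was the only member past the rule upwards in either contrast in 3 of 3 libraries; 18% of all genes were higher in cDC1 in every library.

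Ddit4 was sparse in macrophages, at 0.442, 1.0 and 3.78 CPM in resident alveolar and 1.18, 1.34 and 6.62 CPM in monocyte-derived macrophages. It was highest in T cells in WT GW5074 (11.9 CPM, 4 UMIs) and KO DMSO (48.3 CPM, 21 UMIs), and in migratory dendritic cells in WT DMSO (57.9 CPM, 630 UMIs), where T cells had 54.8 CPM. The intervals of the leading classes overlapped in every library. Neutrophils of WT GW5074 had 0 Ddit4 UMIs among 104702, which allows a level of up to 28.7 CPM (3 counts).

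**Figure D2:**
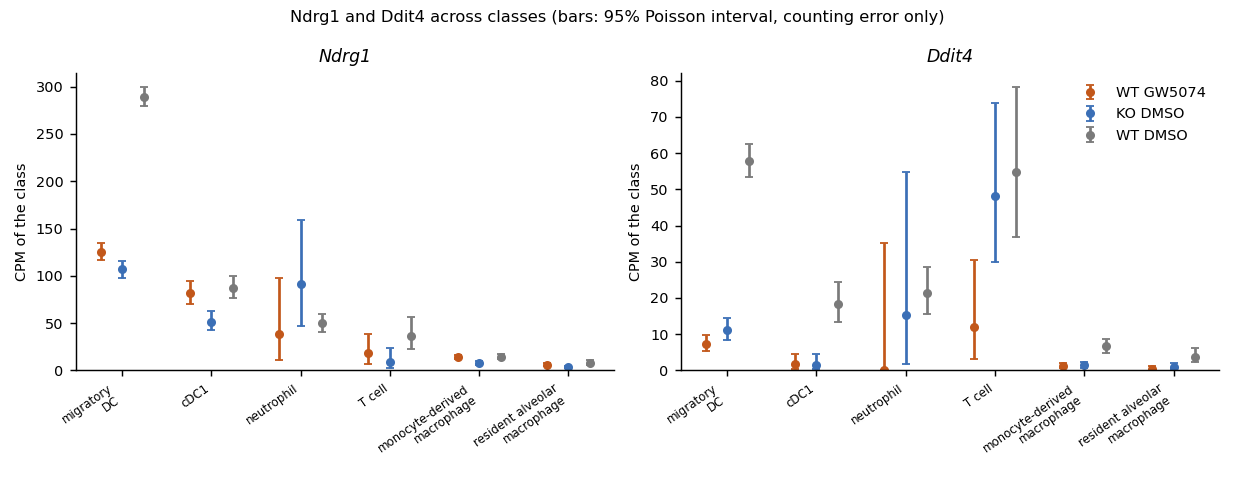
Ndrg1 (left) and Ddit4 (right) in the 6 classes, as CPM of the class with exact 95% Poisson intervals that cover counting error only; colours mark the 3 libraries. In migratory dendritic cells, the WT DMSO point lies above both others for each gene (289 against 125 and 107 CPM for Ndrg1, 57.9 against 7.31 and 11.2 CPM for Ddit4).

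Among members that passed the filter on low values, the clearest difference between libraries was in migratory dendritic cells. There, both Ndrg1 and Ddit4 were lower in WT GW5074 and in KO DMSO than in WT DMSO. For Ndrg1 the log2 ratio was -1.20 in WT GW5074 over WT DMSO, 2.30-fold lower (2.13 to 2.50). For KO DMSO it was -1.44, 2.71-fold lower (2.47 to 2.98). Ddit4 differed by more: it stood at 7.31 CPM in WT GW5074 (44 UMIs, interval 5.31 to 9.82) and 11.2 CPM in KO DMSO (56 UMIs, 8.45 to 14.5), against 57.9 CPM in WT DMSO (53.4 to 62.6). The log2 ratios of Ddit4 were -2.98 for WT GW5074, 7.92-fold lower (5.83 to 11), and -2.37 for KO DMSO, 5.17-fold lower (3.93 to 6.93). Both comparisons use the same WT DMSO library, so a value peculiar to that library would enter both. The lower levels were not confined to this class. In cDC1, below the filter, Ddit4 had log2 ratios of -3.35 (WT GW5074) and -3.60 (KO DMSO). Cells of no class had Ddit4 at 2.01 CPM in WT GW5074 and 2.42 in KO DMSO against 24.2 in WT DMSO. Their Ndrg1 stood at 19.2 and 13.0 against 40.7 CPM. In migratory dendritic cells, Ndrg1 and Ddit4 were 2 members called of the 7 that passed the filter in WT GW5074. There, 5.99% of genes were called in either direction and 2.35% lower. In KO DMSO over WT DMSO, 11.7% of genes were called in this class and 7.81% lower.

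Between the KO DMSO and WT GW5074 libraries the same genes differed less. Ndrg1 had a log2 ratio of -0.23 in KO DMSO over WT GW5074, within the rule, with an interval of 1.05- to 1.32-fold lower. Ddit4 had a log2 ratio of 0.61, past 1.5-fold, with an interval from 1.01- to 2.33-fold higher. It was below the filter and was called higher under 1 of 7 other settings.

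In the share of cells with at least 1 UMI, WT DMSO was again the highest for both genes, while the order of the other libraries varied. Ndrg1 was detected in 17% of WT GW5074, 18.8% of KO DMSO and 39.1% of WT DMSO migratory dendritic cells. With each cell thinned to 1000 UMIs, which left out 423, 69 and 161 shallower cells, the shares were 10.6%, 8.21% and 21.2%. Ddit4 was detected in 1.43%, 2.74% and 13.8% of these cells, and in 0.931%, 0.875% and 5.66% after thinning. Resident alveolar macrophages, the class lowest in Ndrg1, gave 1.42%, 0.880% and 2.83% for Ndrg1 and 0.113%, 0.293% and 1.33% for Ddit4 before thinning, at median depths of 2370.5, 2870 and 3542.5 UMIs. The shares in migratory dendritic cells were above these in each library for both genes.

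RNA of neutrophils moved with the same contrast. The 10 neutrophil markers summed to 180 CPM in WT GW5074 (Ly6g and Retnlg at 0), 106 CPM in KO DMSO (Ly6g at 0) and 1352 CPM in WT DMSO migratory dendritic cells (none at 0). Neutrophils had Ndrg1 at 38.2, 91.1 and 49.7 CPM and Ddit4 at 0, 15.2 and 21.4 CPM, in each library below the level in its migratory dendritic cells for Ndrg1 and, for Ddit4, above it in KO DMSO. Leaving out every migratory cell with a UMI of S100a8 or S100a9, the most abundant neutrophil transcripts, kept 2754 of 3001, 1743 of 1897 and 1471 of 3375 cells, so more of the WT DMSO cells were taken out. Ndrg1 then stood at 133 CPM in WT GW5074 and 109 in KO DMSO against 332 in WT DMSO, and Ddit4 at 6.34 and 11.9 against 64.1 CPM. The log2 ratios without those cells were -1.32 and -1.61 for Ndrg1 and -3.34 and -2.43 for Ddit4.

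Migratory dendritic cells were not uniform in these genes. An earlier look at these data had set apart cells with Glis3, Mylk and Ramp3, so this set is not independent evidence. In WT DMSO, Ndrg1 increased with the number of these markers detected in a cell and stood at 132 CPM with 0 (1210 cells), 247 with 1, 465 with 2 and 757 CPM with 3 (194 cells). Ddit4 stood at 23.4, 49.3, 95.9 and 158 CPM over the same steps, whereas Ldha stayed between 84.2 and 88.5 CPM. Gapdh, the other enzyme examined this way, stood at 204, 247, 237 and 285 CPM. Depth increased along this axis too, with median UMIs of 2596, 2918, 3098.5 and 3180. In WT GW5074 the levels of Ndrg1 were 104, 157 and 151 CPM with 0, 1 and 2 markers, and in KO DMSO 79.9, 131 and 137 CPM. Few cells of these libraries showed all 3 markers, 8 in WT GW5074 and 7 in KO DMSO. Cells with 2 or more made up 5.13% of WT GW5074, 9.38% of KO DMSO and 26.7% of WT DMSO migratory dendritic cells.

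**Figure D3:**
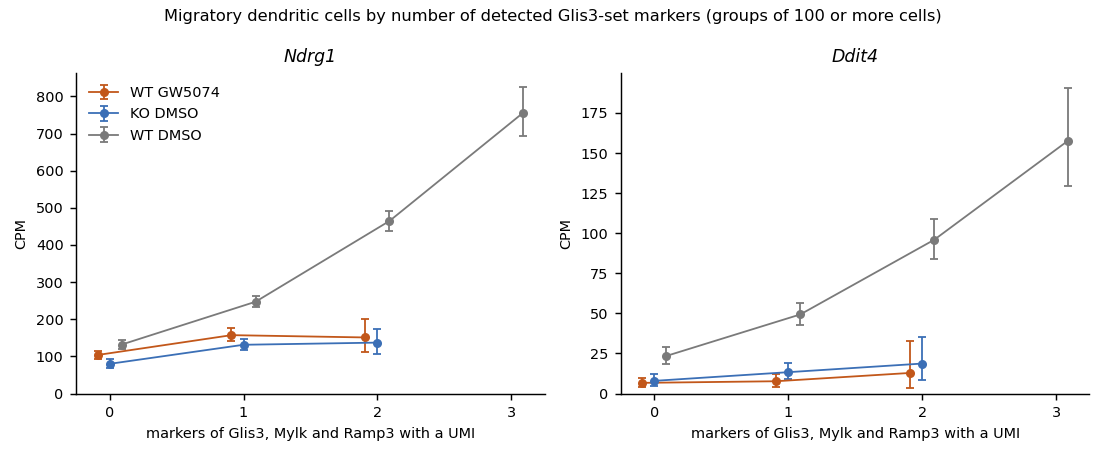
Ndrg1 (left) and Ddit4 (right) in migratory dendritic cells against the number of markers among Glis3, Mylk and Ramp3 with a UMI, as CPM with exact 95% Poisson intervals, for groups of at least 100 cells in each library. The WT DMSO line climbs at each step (132, 247, 465 and 757 CPM for Ndrg1), while the WT GW5074 and KO DMSO lines stay at or below 157 CPM.

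Levels also varied between exclusive subsets. In cells with 2 or more of these markers and none of the other subsets' signatures, Ndrg1 stood at 138 CPM in WT GW5074 (129 cells) and 123 in KO DMSO (115 cells) against 537 in WT DMSO (739 cells), log2 ratios of -1.96 and -2.12. Both were called lower, as were 8.49% and 16.3% of all genes tested in this subset. Ddit4 there stood at 15.7 (4 UMIs) and 23.3 (7 UMIs) against 119 CPM, log2 ratios of -2.92 and -2.35. The intervals were wide, at 2.91- to 27.9-fold and 2.44- to 12.8-fold lower. In cells with Il12b, encoding a subunit of interleukin-12, or Itgb8, Ndrg1 was within the rule, at 198 CPM in WT GW5074 and 163 in KO DMSO against 205 in WT DMSO. That subset held 753, 537 and 620 cells and had less Ddit4, at 4.43, 6.86 and 14.2 CPM. Cells of no subset (2038, 1170 and 1907) held no subset's signature or the signatures of more than 1. In WT DMSO, 900 migratory cells showed 2 or more Glis3-set markers and 739 were in the exclusive subset, so the others fell here. Cells of no subset had Ndrg1 at 93.4 and 77.6 against 234 CPM and Ddit4 at 7.92 and 12.1 against 51.0 CPM. Both genes were called lower in both libraries, as 2.03% and 7.52% of all genes were. Whether the ratios differ between subsets was not tested, as there is 1 library per group.

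Clustering of all cells, run without the 10 members, separated 4 clusters of migratory dendritic cells. The cluster that Mylk and Ramp3 helped to lead held 36 gated migratory cells of WT GW5074 (1.2% of the class), 12 of KO DMSO (0.633%) and 1316 of WT DMSO (39.0%). A cluster that comes almost entirely from 1 library may reflect that library and not a cell type. In WT DMSO its cells had 570 CPM of Ndrg1 and 127 CPM of Ddit4, against 177 and 11.6 CPM in the cluster led by Il12b and 85.5 and 19.4 CPM in the cluster with the most cells over all 3 libraries. In that most populous cluster Ndrg1 stood at 82.8 CPM in WT GW5074, 71.3 in KO DMSO and 85.5 in WT DMSO. Ddit4 there stood at 9.91 CPM in WT GW5074, 16.5 in KO DMSO (interval 11.8 to 22.5) and 19.4 in WT DMSO (14.6 to 25.2). The KO DMSO and WT DMSO intervals thus overlapped. In the Il12b cluster Ndrg1 was 221, 178 and 177 CPM, and Ddit4 was 4.87, 5.11 and 11.6 CPM. The fourth cluster, with 285, 125 and 149 gated cells, had Ndrg1 at 54.9 CPM in WT GW5074 (interval 42.5 to 69.9) and 68.9 in KO DMSO (49.2 to 93.8) against 102 in WT DMSO (83.2 to 124), and Ddit4 at 4.16 and 3.44 against 22.2 CPM.

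**Figure D4:**
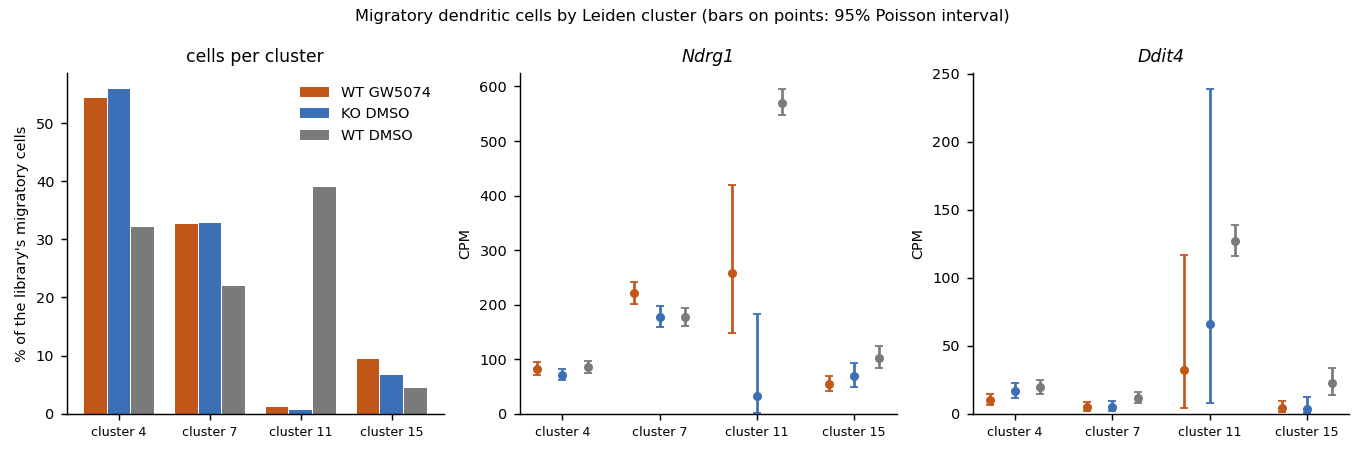
Gated migratory dendritic cells by Leiden cluster: share of each library's migratory cells (left), Ndrg1 (middle) and Ddit4 (right) as CPM with exact 95% Poisson intervals. Cluster 11, which Mylk and Ramp3 help to lead, holds 39.0% of WT DMSO cells and at most 1.2% of the others, and its WT DMSO cells have the most Ndrg1 (570 CPM) and Ddit4 (127 CPM).

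Outside that cluster, migratory dendritic cells had 124 CPM of Ndrg1 in WT GW5074 and 107 in KO DMSO against 130 in WT DMSO. The log2 ratios there were -0.072 (interval 0.862 to 1.05 as a ratio) for WT GW5074 and -0.28 (0.736 to 0.915) for KO DMSO, both within the rule, so the call on Ndrg1 rested on this cluster. Ddit4 outside it stood at 7.05 and 10.9 against 19.0 CPM, with ratios of 0.256 to 0.530 for WT GW5074 and 0.409 to 0.791 for KO DMSO, and was then below the filter. The log2 ratios of Ddit4 there were -1.43 and -0.81.

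Within single cells the 2 genes were found together more often in WT DMSO. At 1000 UMIs per cell, Ndrg1 was detected in 33.0% of the 182 migratory dendritic cells with a Ddit4 UMI (exact binomial interval 26.2 to 40.3%) and in 20.5% of the 3032 without (19.1 to 22.0%). The same shares were 8.33% of 24 (1.03 to 27.0%) and 10.6% of 2554 cells in WT GW5074. In KO DMSO they were 0 of 16, which allows up to 20.6%, and 8.28% of 1812 cells. The few Ddit4-positive cells in WT GW5074 and KO DMSO leave the co-detection there undetermined at this depth.

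In the other classes, Ndrg1 was called in cDC1 only. It stood at 81.3 CPM in WT GW5074 and 51.6 in KO DMSO, against 87.3 in WT DMSO cDC1. KO DMSO was 1.69-fold lower than WT DMSO (1.33 to 2.16), where 6.49% of genes were lower, and 1.57-fold lower than WT GW5074 (1.23 to 2.03), where 8.74% were. WT GW5074 was within the rule of WT DMSO, and neutrophil markers summed to 74.6, 96.7 and 653 CPM in these cells, whose part in the difference was not tested. Below the filter, Ndrg1 was also lower in KO DMSO than in WT DMSO resident alveolar macrophages (3.12 against 8.02 CPM, log2 ratio -1.36). The same held in monocyte-derived macrophages (7.55 against 14.5 CPM, -0.94) and T cells (9.19 against 36.5 CPM, -1.99). These intervals excluded 1, while neutrophils had a positive ratio (0.87). WT GW5074 gave no such call in these classes without the filter. Ddit4 was under 50 CPM in all classes but migratory dendritic cells and T cells. Its low counts still leaned one way: in WT GW5074 and KO DMSO it had 4 and 9 UMIs against 16 in WT DMSO resident alveolar macrophages, 16 and 11 against 49 in monocyte-derived macrophages, and 4 and 3 against 46 in cDC1. The intervals of all 6 of these ratios lay below 1. In T cells Ddit4 had 4 UMIs in WT GW5074 and 21 in KO DMSO against 30 in WT DMSO, and the interval of the KO DMSO ratio included 1. Neutrophil markers moved the same way in these classes. They summed to 312 CPM in WT GW5074 and 343 in KO DMSO against 1078 in WT DMSO resident alveolar macrophages, 400 and 378 against 2520 CPM in monocyte-derived macrophages, and 332 and 184 against 1758 CPM in T cells. Ly6g was at 0 in each of these 9 sums, and their part in the Ndrg1 and Ddit4 counts was not tested.

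Few enzyme differences were called between WT GW5074 and WT DMSO. Of the 60 gene-and-class pairs, 37 passed the filter and 4 were called: Ndrg1 and Ddit4 in migratory dendritic cells as above, Eno1 in cDC1 and Aldoa in T cells. Eno1 stood at 66.5 CPM in WT GW5074 against 44.1 CPM in WT DMSO cDC1, 1.51-fold higher (1.17 to 1.95), where 2.04% of genes were higher. Aldoa stood at 187 CPM (63 UMIs) against 115 CPM (63 UMIs) in T cells, 1.62-fold higher (1.13 to 2.34), where 3.97% of genes were higher. Both calls lay near the threshold, and 2.78% of genes in cDC1 and 7.26% in T cells were called in either direction. In resident alveolar and monocyte-derived macrophages no member was called, and all 6 enzymes lay within log2 ratios of -0.12 to 0.44, where 1.02% and 1.21% of genes were called. Eno1 had a positive ratio in 5 of 6 classes, among them 0.69 in migratory dendritic cells, below the filter at 42.0 against 26.1 CPM. No member was called in neutrophils, where 16.2% of genes were. In migratory dendritic cells Aldoa was just within the rule, at 169 against 114 CPM (log2 ratio 0.57), and was called higher under 1 of 7 other settings. Aldoa and Pkm had positive ratios in all 6 classes, as 10.8% of genes did, of 4 members testable in every class.

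In KO DMSO, Gapdh and Aldoa were higher than in WT DMSO in most classes, while the other enzymes were within the rule where they passed the filter. Of these, Eno1 in T cells came nearest to the 1.5-fold limit, at 136 CPM in KO DMSO against 91.3 in WT DMSO, and was called higher under 4 of 7 other settings. Of 39 pairs that passed the filter, 12 were called, 9 higher and 3 lower. Calls in either direction made up 11.7% of all genes in migratory dendritic cells, 10.7% in cDC1, 16.3% in neutrophils, 15.2% in T cells, 5.29% in resident alveolar and 4.36% in monocyte-derived macrophages. Gapdh, the enzyme that oxidises glyceraldehyde phosphate, stood at 405 CPM in KO DMSO against 233 in WT DMSO migratory dendritic cells, 1.74-fold higher (1.64 to 1.84), where 3.87% of genes were higher. It stood at 691 against 440 CPM in resident alveolar macrophages, 1.57-fold higher (1.49 to 1.65), where 2.22% were. In cDC1 it was 296 against 168 CPM, 1.76-fold higher (4.16% of genes). T cells had 398 against 232 CPM, 1.71-fold higher (5.75%), and neutrophils 364 against 235 CPM, 1.55-fold higher from 48 UMIs in KO DMSO (7.27%). In monocyte-derived macrophages the ratio was 1.44 (1.37 to 1.5), just within the rule.

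Aldoa, which splits fructose bisphosphate into triose phosphates, was called higher in 4 of 6 classes. It stood at 219 CPM in KO DMSO against 114 in WT DMSO migratory dendritic cells, 1.93-fold higher (1.78 to 2.1). In neutrophils it was 349 against 153 CPM, 2.28-fold higher, in cDC1 217 against 127 CPM, 1.70-fold higher, and in T cells 225 against 115 CPM, 1.96-fold higher. The macrophage classes were within the rule, with log2 ratios of 0.33 and 0.43. Gapdh and Aldoa each had a positive ratio in all 6 classes, as 15.7% of 1359 genes did, and Pkm a negative one, as 20.9% did, of 4 members testable in every class. Eno1 also had positive ratios in all 6 classes, from 0.14 in neutrophils to 0.77 in migratory dendritic cells. The latter was below the filter, at 44.4 against 26.1 CPM. Ldha kept log2 ratios between -0.12 and 0.19 and Pkm between -0.28 and -0.06, so the enzymes did not all move together.

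Few members were called between KO DMSO and WT GW5074. Of 29 pairs that passed the filter, 3 were called: Ndrg1 in cDC1 as above, and Gapdh in migratory dendritic cells and T cells. Calls in either direction made up 9.65% of all genes in migratory dendritic cells, 12% in cDC1, 18.5% in T cells, 2.41% in resident alveolar and 2.91% in monocyte-derived macrophages. Gapdh stood at 405 CPM in KO DMSO against 241 in WT GW5074 migratory dendritic cells, 1.68-fold higher (1.57 to 1.80), where 2.48% of genes were higher. In T cells it was 398 against 205 CPM, 1.94-fold higher (1.46 to 2.61), where 8.53% were. In cDC1, Aldoa was just within the rule at 217 against 146 CPM, 1.49-fold higher, and Gapdh at 296 against 208 CPM, 1.43-fold higher, and they were called under 4 and 3 of 7 other settings. Gapdh and Aldoa had positive ratios in the 5 classes without neutrophils, as 23.1% of genes did, and Pkm negative ones, as 29.7% did. In neutrophils, where 37.2% of the few genes tested were called, no member passed the filter in this comparison.

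**Figure D5:**
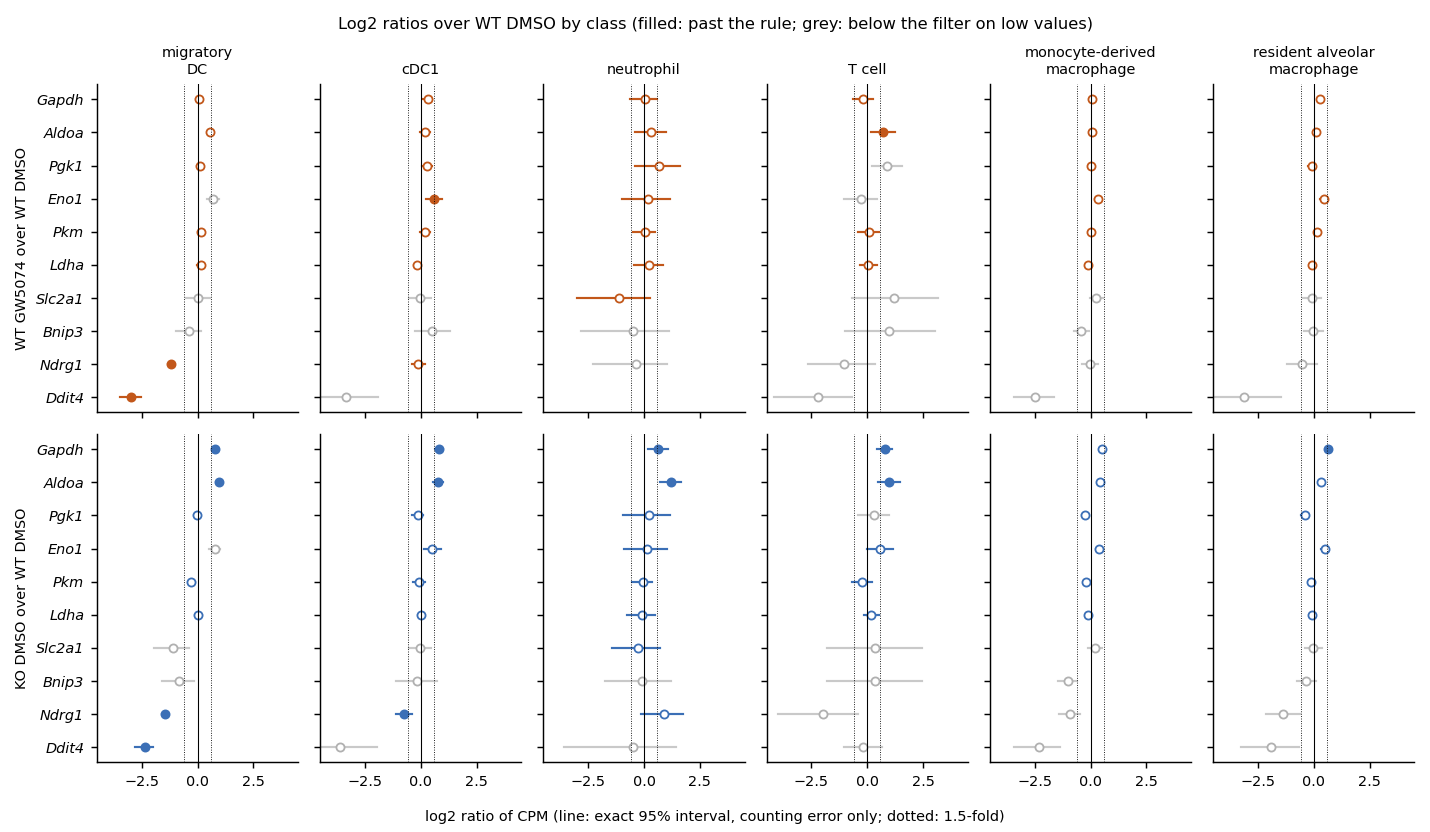
Log2 ratios of the 10 genes over WT DMSO in the 6 classes, for WT GW5074 (top) and KO DMSO (bottom); lines are exact 95% intervals for counting error, dotted lines mark 1.5-fold, filled points are past the rule and grey points are below the filter on low values (Ddit4 in WT GW5074 neutrophils, with 0 UMIs, is not drawn). Filled points for Gapdh and Aldoa lie to the right in KO DMSO, and those for Ndrg1 and Ddit4 in migratory dendritic cells to the left in both rows, at -1.20 and -2.98 for WT GW5074 and -1.44 and -2.37 for KO DMSO.

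The other genes of glycolysis mostly stayed within the rule. Of 26 listed, 7 passed the filter in resident alveolar macrophages and 6 each in monocyte-derived macrophages and migratory dendritic cells. None was called in WT GW5074 over WT DMSO in these 3 classes, where 1.02%, 1.21% and 5.99% of all genes were. For KO DMSO 1 was, where 5.29%, 4.36% and 11.7% were. That gene was Eno3, the muscle-type enolase, at 225 CPM in KO DMSO against 146 in WT DMSO migratory dendritic cells, a log2 ratio of 0.63. Pfkfb3, which makes the activator of phosphofructokinase, had log2 ratios of -0.25 in WT GW5074 (263 against 313 CPM) and -0.52 in KO DMSO (218 against 313 CPM) migratory dendritic cells. Hk2, the inducible hexokinase, had a log2 ratio of -0.53 in KO DMSO resident alveolar macrophages, at 61.4 against 88.5 CPM, and -0.26 in WT GW5074. Of the other classes, cDC1 had no call over WT DMSO. In neutrophils Pfkp, a phosphofructokinase, was lower in WT GW5074 (3 UMIs, ratio 4.27-fold lower, interval 1.44 to 20.8) and in KO DMSO (7 UMIs, 2.30-fold lower), against 122 CPM in WT DMSO, and Pfkfb3 was lower in WT GW5074 (6 UMIs, 57.3 against 127 CPM). All genes called lower in neutrophils made up 8.87% in WT GW5074 and 9.07% in KO DMSO. Pfkp was also lower in KO DMSO T cells (68.9 against 130 CPM), as 9.4% of genes were.

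The hypoxia regulators showed small differences where they passed the filter. Of 30 other genes of the hypoxia response, 0 were called in WT GW5074 over WT DMSO in the 3 classes. For KO DMSO over WT DMSO 3 calls were made in these classes, all lower and in macrophages, where 3.07% (resident alveolar) and 3.03% (monocyte-derived) of all genes were lower. Bhlhe40, a transcriptional repressor known as a HIF-1 target, stood at 87.0 CPM in KO DMSO against 153 in WT DMSO resident alveolar macrophages, a log2 ratio of -0.82. In monocyte-derived macrophages it stood at 90.1 against 139 CPM, -0.62. Epas1, which encodes HIF-2 alpha, stood at 38.5 against 64.2 CPM in resident alveolar macrophages, -0.74. Hif1a itself was within the rule in each: in migratory dendritic cells it stood at 130 CPM in WT GW5074 and 101 in KO DMSO against 135 in WT DMSO. Bnip3l, the relative of Bnip3, was also within the rule there in WT GW5074, at 89.7 against 83.8 CPM. Vegfa, the classical secreted target, stayed at or below 2.03 CPM in both macrophage classes. In KO DMSO over WT GW5074, Bhlhe40 was lower in resident alveolar macrophages (-0.60) and Vhl, which targets HIF for degradation, in migratory dendritic cells (69.1 against 105 CPM, -0.60), where 1.5% and 7.17% of genes were lower. Bhlhe40 and Vhl were also lower in KO DMSO cDC1, with 66.2 CPM of Bhlhe40 against 111 in WT GW5074 and 121 in WT DMSO, and 37.6 CPM of Vhl against 67.8 and 58.7. In neutrophils of WT GW5074, Bhlhe40 (14 UMIs) and Egln3, an oxygen-sensing hydroxylase (12 UMIs), were lower than in WT DMSO.

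Because Ddit4 also answers to glucocorticoids, genes of that response were listed beside it. In WT GW5074 over WT DMSO, Fkbp5, the co-chaperone that is a standard readout of the glucocorticoid receptor, was lower in resident alveolar macrophages (60.8 against 122 CPM, -1.0), monocyte-derived macrophages (43.6 against 126 CPM, -1.53) and migratory dendritic cells (23.8 against 67.0 CPM, -1.49). Of the 7 genes listed, 2 of the 4 that passed the filter were lower in resident alveolar macrophages and 4 of 5 in monocyte-derived macrophages, as 0.402% and 0.867% of all genes were. In migratory dendritic cells 3 of 4 were lower, Fkbp5, Tsc22d3 (55.5 against 94.6 CPM, -0.77) and Dusp1 (142 against 225 CPM, -0.67), and Sgk1 was higher (82.3 against 37.9 CPM, 1.12), where 2.35% of all genes were lower and 3.64% higher. In cDC1 1 of 4 was lower (Fkbp5, -0.77), with a median of -0.08 over the 4, in T cells 1 of 2, and in neutrophils 6 of 7 with 1 higher; genes called lower made up 0.739%, 3.29% and 8.87% in these classes. Neutrophils of WT DMSO had 443 CPM of Fkbp5, more than any other class compared, and the part of neutrophil RNA in these differences was not tested. Tsc22d3 encodes the glucocorticoid-induced leucine zipper protein, Dusp1 a phosphatase of MAP kinases and Sgk1 a kinase.

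For the KO DMSO library the same list gave fewer calls. Fkbp5 (32.8 against 67.0 CPM, -1.03) and Tsc22d3 (62.5 against 94.6 CPM, -0.60) were lower in migratory dendritic cells, 2 of 3 that passed the filter, where 7.81% of all genes were lower. In monocyte-derived macrophages 1 of 5 was lower (Klf9, -0.72), and in resident alveolar macrophages 0 of 4, where 3.03% and 3.07% of all genes were lower. In cDC1 1 of 4 was lower, in T cells 1 of 2 and in neutrophils 5 of 7. Genes called lower made up 6.49%, 9.4% and 9.07% in these classes. KO DMSO exceeded WT GW5074 in Fkbp5 by log2 ratios of 0.99 in resident alveolar and 1.07 in monocyte-derived macrophages, both called, as 0.912% and 1.06% of all genes were higher.

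Lists for other inducers of Ddit4 and for close relatives held few calls. Atf4, the factor of the integrated stress response, was lower in KO DMSO than in WT DMSO resident alveolar macrophages (80.7 against 130 CPM, -0.69), and so was Phlda3, a p53 target (50.1 against 80.7 CPM, -0.69). No other gene of these 2 lists was called in the 3 classes over WT DMSO. Ndrg4, a relative of Ndrg1, was lower in both libraries in migratory dendritic cells, at 33.1 CPM in WT GW5074 and 22.0 in KO DMSO against 51.2 in WT DMSO, log2 ratios of -0.63 and -1.22. Of 7 genes of the respiratory chain listed for reference, 6 were within the rule there in both libraries, and Ndufb4, a subunit of complex I, was lower at 39.5 and 37.0 against 72.9 CPM. The medians over all genes in these comparisons lay between -0.08 and 0.00.

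Across the 18 points given by 6 classes in 3 libraries, the genes whose log2(CPM + 1) followed Ndrg1 most closely were Jak2 (Pearson r 0.95), Coro2a (0.94), Malat1 (0.93), Pmaip1 (0.93) and Paxbp1 (0.92). For Ddit4 they were Anapc16 (0.90), Rsbn1l (0.88), Mdm4 (0.87), Ubxn7 (0.87) and Arglu1 (0.85), of 6055 genes ranked. These points share libraries and depth, so the coefficients only describe likeness. Among the members, Gapdh and Aldoa ran closest (0.92) and Eno1 and Ndrg1 were most opposed (-0.91), whereas Ndrg1 and Ddit4 reached 0.45.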

How the data were processed

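The deposited files hold raw UMI counts per gene and barcode for 3 libraries. Per the labels' protocols they are 3' libraries made on a SeekOne chip, while a label also names 10x Genomics. Reads were handled with Cell Ranger 2.1.1 on mm10, per the submitters' processing notes, and how barcodes were filtered is not given in the sources used here. Strand handling and multi-mapped reads are not given either.

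From these counts, barcodes under 200 genes or above 20% mitochondrial UMIs were dropped, and marker lists of 15 classes gated them (at least 3 markers, lead of 2), which left 12528 cells in no class. UMIs were summed per class and library, scaled to CPM and given exact Poisson intervals, and ratios were given exact conditional binomial intervals (95%, counting error only). The rule was 1.5-fold with an interval excluding 1, at least 50 CPM in 1 of the 2 and at least 100 UMIs over both, fitted to every gene. The members, marker sets and pathway lists were chosen with earlier results of these data known. All members are named in every class compared, and of other lists the genes with the highest and lowest ratios in migratory dendritic cells and both macrophage classes, of which the text gives the called ones and examples. No doublet caller was run; cells with 2 or more markers of another class were left out as an alternative.

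Other alternatives were median-of-ratios scaling, the mean of CPM per cell, a stricter cell filter (500 genes, 10% mitochondrial), 4 markers, Leiden clusters and no filter on low values. Clusters used 2000 variable genes less the members, 30 components, 15 neighbours and resolution 1, and took a class name when 50% of cells were gated and 75% of those shared 1 class, a rule set after seeing the data. Shares were thinned to 1000 UMIs. On counts simulated with counting error alone, for migratory dendritic cells and T cells over WT DMSO, the rule recovered 97.6% or more of genes changed by 2-fold. Of unchanged genes it called 0% in migratory dendritic cells, and 2.48% (WT GW5074) and 1.43% (KO DMSO) in T cells. The simulation used the counting model of the intervals, so it says nothing of differences between mice or libraries. Tools were Python 3.11.15, numpy 2.4.6, scipy 1.17.1, pandas 2.3.3, scanpy 1.11.5, leidenalg 0.10.2 and matplotlib 3.10.9.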

Additional observations from a re-analysis of the deposited data

How the results depend on the processing

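No paired analysis was possible because there is 1 library per group, and for the same reason no replicate could be left out. In migratory dendritic cells the 7 alternatives of scaling, averaging, cell filter, gate, clusters, other-class markers and low-value filter kept Ddit4 lower, at -3.10 to -2.80 (WT GW5074) and -2.40 to -2.17 (KO DMSO), and Ndrg1 lower, at -1.31 to -1.12 and -1.59 to -1.37; the lowest of these, -1.59, came from the mean of CPM per cell. Leaving out cells with markers of another class gave Ndrg1 at -0.40 in KO DMSO over WT GW5074.

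Settings chosen after seeing the data moved both genes. Without cells showing 2 or more of Glis3, Mylk and Ramp3, Ddit4 stood at -2.41 and -1.84 and Ndrg1 at -0.65 and -0.90. Without cells showing 1 or more, Ddit4 stood at -1.82 and -1.57 and Ndrg1 at -0.35 and -0.72, and Ndrg1 was then within the rule in WT GW5074. Without the cluster led by Mylk and Ramp3, Ddit4 stood at -1.43 and -0.81 and Ndrg1 at -0.072 and -0.28. Without cells with S100a8 or S100a9, Ndrg1 stood at -1.32 and -1.61.

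With no filter on low values, the member-and-class pairs called numbered 10 in place of 4 (WT GW5074 over WT DMSO), 22 in place of 12 (KO DMSO over WT DMSO) and 11 in place of 3 (KO DMSO over WT GW5074), and 2 members in place of 1 were higher in migratory dendritic cells than in resident alveolar macrophages. Such pairs called between KO DMSO and WT GW5074 numbered 6 by the mean of CPM per cell and 6 without cells holding markers of another class. Pairs of other glycolysis and hypoxia genes with the 3 classes described, called in WT GW5074 over WT DMSO, numbered 0, and 1 by the mean of CPM per cell, 1 with Leiden clusters, 4 without cells holding other markers and 7 unfiltered. For KO DMSO over WT DMSO they numbered 4, and 8 without cells holding other markers and 29 unfiltered. For KO DMSO over WT GW5074 they numbered 2, and 1 each by scaling, the stricter cell filter and Leiden clusters, 7 without cells holding other markers and 19 unfiltered. The cause of these shifts was not tested, except that dropping the filter adds genes. The share of all genes called was not counted under these settings. The counts therefore describe the settings and not these genes in particular.

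Of 15 other member values called, between 10 and 15 kept their call under each of the 7, and none changed direction. Eno1 in cDC1 (WT GW5074) lost its call under 4 alternatives, Aldoa in T cells (WT GW5074) under 3, and Ndrg1 in cDC1 and Gapdh in T cells (KO DMSO over WT GW5074) under 2 each. Calls gained under 2 or more alternatives were all higher. In KO DMSO over WT DMSO they were Gapdh in monocyte-derived macrophages (under 3), Eno1 in T cells (4) and Eno1 in cDC1 (2). Eno1 in migratory dendritic cells gained a call under 2 in both comparisons with WT DMSO. In KO DMSO over WT GW5074 they were Aldoa (4) and Gapdh (3) in cDC1 and Gapdh in monocyte-derived macrophages (2). Calls gained under 1 alternative went both ways. Without the filter on low values, Ddit4 and Ndrg1 were called lower in both macrophage classes of KO DMSO over WT DMSO. Depth limits Ddit4, Slc2a1 and Bnip3 outside the classes named, and neutrophils of WT GW5074 and KO DMSO.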

Other observations

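A cluster that took no class name also carried Ddit4 in WT DMSO. It was led by Mgl2, Cd209a and Clec10a, genes known from conventional dendritic cells and macrophages, and held 465 cells in WT GW5074, 303 in KO DMSO and 476 in WT DMSO. The marker gate had placed 31.0% of these cells in a class, among them 31, 36 and 36 migratory dendritic cells. Ddit4 stood there at 8.57 CPM in WT GW5074 (interval 3.7 to 16.9), 10.9 in KO DMSO (5.0 to 20.8) and 102 in WT DMSO (87.1 to 119). Ndrg1 stood at 19.3, 26.7 and 75.2 CPM. The genes that define a cluster share its cells, so these values are a description.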
